A study of Mus musculus with 12 samples.

Results

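The genes described here are 34 genes of glycolysis, lactate handling and the response to low oxygen, named by symbol and found in the count table through the GENCODE M21 mouse annotation. All 34 symbols matched, out of 52636 gene identifiers counted. The symbol Aldoa is carried by 2 identifiers, and the identifier with nearly all of the counts (ENSMUSG00000030695) was used as the member. By role the list holds 18 glycolytic enzymes, 3 regulators of fructose 2,6-bisphosphate, 2 lactate transporters, 3 genes of oxygen sensing and 8 hypoxia-inducible genes.

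Bulk RNA sequencing was done on dissociated liver and mammary tumor of female FVB/NJ mice, all of which carried an orthotopic Fo5 tumor. Fo5 is a transplanted mammary tumor line from founder 5 of MMTV-HER2 transgenic mice, in which the promoter of the mouse mammary tumor virus drives HER2 in mammary epithelium. Mice received a single intravenous dose of vehicle, a histidine acetate and sucrose buffer, or of 5 mg/kg anti-HER2(4D5-2C11)/CD3, and organs were taken 24 h later. This antibody is a T cell-dependent bispecific (TDB): it binds HER2 on tumor cells and CD3 on T cells. The 12 libraries form 4 groups of 3, vehicle and TDB in each tissue, and by the series' design text both tissues came from the same 3 mice per treatment. No label ties a library number to a mouse across tissues. The age of the mice is not given in the sources used here.

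Glycolysis splits glucose into pyruvate, which lactate dehydrogenase can turn into lactate for export from the cell. Hepatocytes run the pathway partly with isoenzymes of their own, such as the liver form of pyruvate kinase, whereas most other cells use the muscle form. When oxygen is low, prolyl hydroxylases no longer mark the factor HIF-1 alpha for destruction by the VHL complex, and HIF then raises the transcription of glucose transporters, glycolytic enzymes and other target genes by binding a short core motif near them. Activated T cells, macrophages and neutrophils also use glycolysis heavily, and hexokinase 3 is found mainly in myeloid cells.

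Libraries held 18460159 to 29396324 counts. Values are given as CPM, the usual depth-scaled count, here with edgeR's TMM scaling done within each tissue, so CPM of liver and tumor are not on a common scale. The labelled tissues matched their markers: Clec4f, a marker of Kupffer cells, was at 0 in all tumor libraries, and the summed CPM of 10 mammary epithelial tumor markers was 251 to 335 in liver vehicle and 25867 to 29904 in tumor vehicle libraries. The third liver TDB library stood apart, with 2.05% of its counts from mitochondrial genes against 0.612% to 1.28% in the other 11. Across genes, its log2 deviation from the group mean went with gene length (Spearman rho 0.655), and that of the first liver TDB library went the other way (rho -0.617). The second liver TDB library had -0.508, and the liver vehicle libraries had 0.147, -0.474 and 0.493, so such trends were not particular to TDB. As deviations are taken from the group mean, opposite signs within a group follow in part from that centering. In bulk tissue, fewer cells of a type and less RNA per cell cannot be told apart, and the same holds for more cells and more RNA.

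After antibody, 3 of the 32 members tested in liver were higher and 0 were lower by edgeR's quasi-likelihood test at a Benjamini-Hochberg adjusted p under 0.05. Over all genes tested in liver, 0.535% were called, 0.513% as higher and 0.0220% as lower. At an unadjusted p under 0.05, 5 members were higher and 2 lower in liver, and DESeq2 called 4 higher and 0 lower, limma-voom 1 higher and 0 lower. In the tumor, 5 of 33 members tested were higher and 4 were lower, against 28.8% of all genes tested called there, 15.8% as higher and 13.1% as lower. The members' share in the tumor was therefore close to that of all genes, and the median log2 fold change of the members was -0.15 against -0.02 over all genes. With upper quartile scaling, 2075 genes were higher and 2991 lower in the tumor instead of 2437 and 2019, and 5 members were called in each direction. Hk3 was the only member called in both tissues by the edgeR test.

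**Figure D1:**
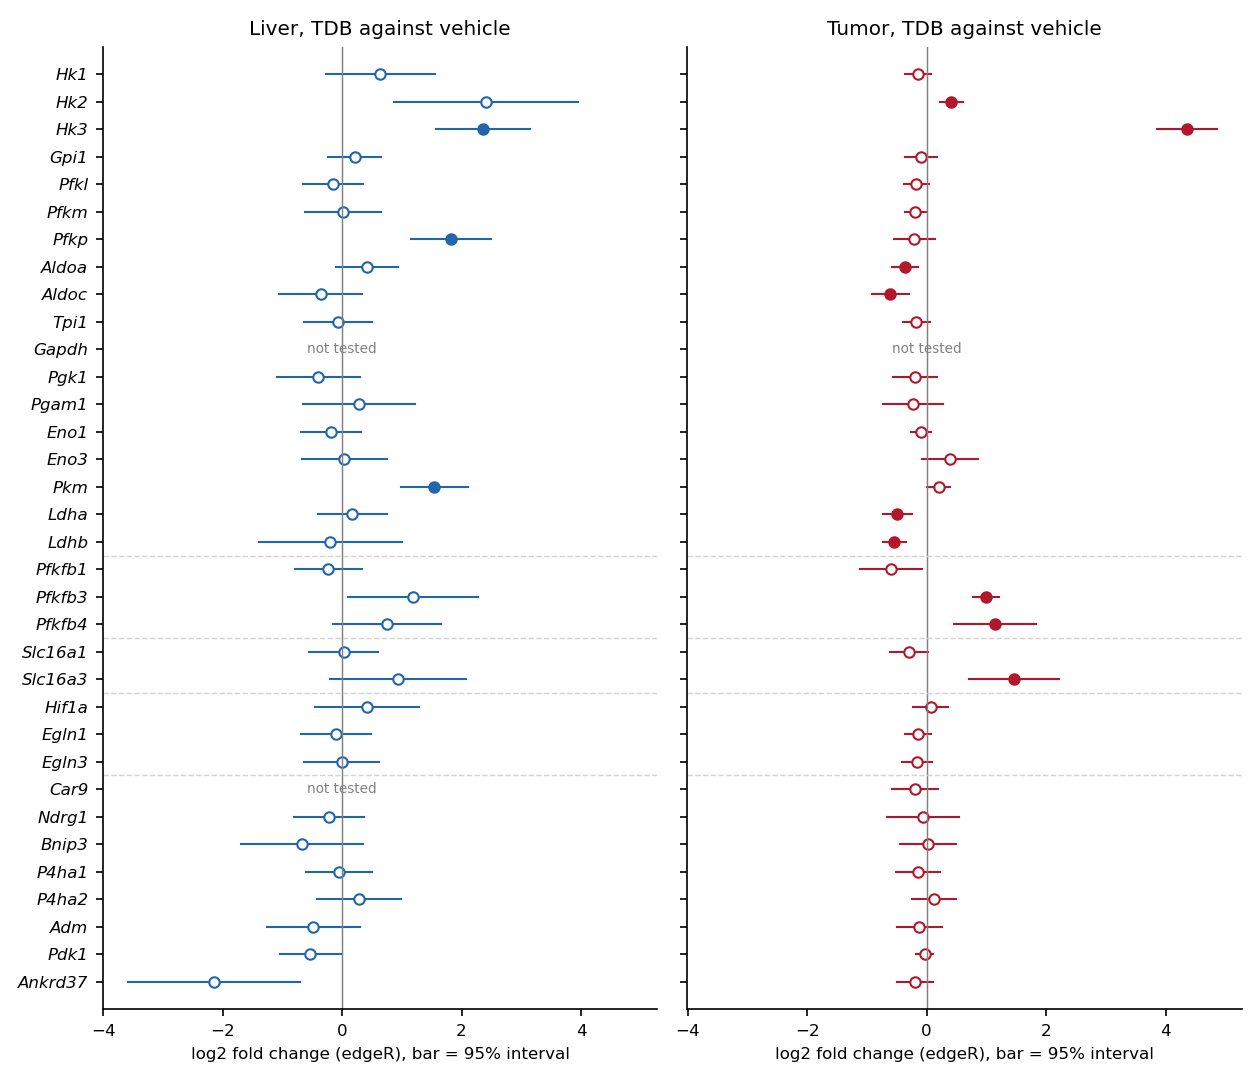
Antibody effect on each of the 34 members in liver (left) and tumor (right): points are edgeR log2 fold changes of TDB against vehicle (x axis), lines are 95% intervals, filled points passed an adjusted p of 0.05, and dashed lines separate the roles. Hk3 lies at 2.36 in liver and 4.36 in the tumor, and all 11 oxygen sensing and hypoxia-inducible members of the tumor panel are open points whose lines stay between -0.66 and 0.55.

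Because HIF acts through a short motif, the stretch of 250 bases before each RefSeq transcription start (GRCm38.p6) was searched for the HIF core, ACGTG or GCGTG, on both strands. Of the 34 members 33 had at least 1 such start, with 49 starts in all. The core was found before 39 of these 49 starts (79.6%) and before 38.6% of all 32851 starts, and it was found before 7 of the 8 starts of the hypoxia-inducible members that had an entry. The members were chosen for roles that include HIF response, and starts were not matched for base content, though both cores contain CG. The difference was not tested and is no measure of HIF control. Interferon-type motifs were few: TTCNNNGAA, a STAT site, was found before 2 of the 49 members' starts (4.08%) against 7.02% of all. A match like an interferon response element (GAAA, any 2 bases and GAAA again) was found before 0 of 49 (0%) against 2.98%. These counts are too small to read as a difference from all starts. A match is only a run of letters, and no binding was measured here. The sequences below are shown for 3 members that rose in the tumor (Hk3, Pfkfb3 and Slc16a3) and 2 that did not pass there (Egln3 and Ankrd37). They run 5′ to 3′ up to the RefSeq start or to the first base of a GENCODE M21 exon, with HIF cores on either strand in capitals, and adjoining or overlapping cores form longer capital runs.
Hk3 (chr13:55021386-55021635, minus strand): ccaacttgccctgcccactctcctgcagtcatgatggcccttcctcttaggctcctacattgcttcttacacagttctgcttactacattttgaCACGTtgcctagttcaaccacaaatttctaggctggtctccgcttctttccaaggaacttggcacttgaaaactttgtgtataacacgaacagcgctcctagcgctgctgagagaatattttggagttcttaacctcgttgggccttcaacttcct
Pfkfb3 (chr2:11502102-11502340, minus strand): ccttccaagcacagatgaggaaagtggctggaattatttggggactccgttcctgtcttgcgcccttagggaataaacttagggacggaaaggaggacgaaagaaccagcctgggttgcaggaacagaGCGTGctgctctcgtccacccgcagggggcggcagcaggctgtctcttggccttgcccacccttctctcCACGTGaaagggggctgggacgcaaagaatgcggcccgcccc
Slc16a3 (chr11:120948817-120949052, plus strand): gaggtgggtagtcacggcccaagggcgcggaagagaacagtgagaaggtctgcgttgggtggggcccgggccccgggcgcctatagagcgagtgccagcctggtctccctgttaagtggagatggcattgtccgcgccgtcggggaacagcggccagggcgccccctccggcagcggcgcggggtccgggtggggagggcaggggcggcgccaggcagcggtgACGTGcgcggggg
Egln3 (chr12:54203875-54204124, minus strand): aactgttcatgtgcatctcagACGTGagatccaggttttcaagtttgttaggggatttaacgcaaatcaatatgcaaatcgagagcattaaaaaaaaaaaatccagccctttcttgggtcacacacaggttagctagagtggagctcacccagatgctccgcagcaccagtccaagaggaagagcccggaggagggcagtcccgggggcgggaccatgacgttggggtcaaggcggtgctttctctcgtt
Ankrd37 (chr8:45999868-46000100, minus strand): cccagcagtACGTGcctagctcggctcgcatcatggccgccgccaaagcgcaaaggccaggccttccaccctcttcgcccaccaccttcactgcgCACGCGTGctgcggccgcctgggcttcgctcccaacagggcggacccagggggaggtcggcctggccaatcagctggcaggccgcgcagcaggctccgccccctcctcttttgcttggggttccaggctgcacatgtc
The stretch before Hk3 holds 1 core, that of Pfkfb3 holds 3, of which 2 overlap, that of Slc16a3 holds 1, that of Egln3 holds 1 and that of Ankrd37 holds 3. Pfkfb3 has another RefSeq start, not printed, whose 102 bases outside exons hold 0 cores. The shares above used the full 250 bases. These hold 1 core before that second Pfkfb3 start, 2 before Slc16a3 and 4 before Ankrd37. Genes with and without a call in the tumor thus both carried the core. Counted by gene, 31 of the 33 members with an entry had it before at least 1 start. The share of all genes by this count was not computed. Where starts of a gene lie close together, as for Aldoa and Eno1, their stretches overlap and 1 core can count for both.

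Hk3, which encodes hexokinase 3 and lies at chr13:55005985-55021385 (GRCm38), rose in both tissues. In liver its level was 7.60, 4.53 and 3.38 CPM in the vehicle libraries and 22.8, 28.6 and 28.4 CPM in the TDB libraries. In the tumor it was 3.39, 2.66 and 5.38 CPM with vehicle and 77.3, 81.6 and 76.6 CPM with TDB. Every TDB library was above every vehicle library in both tissues, and the 3 tumor TDB libraries lay close together. The log2 fold change was 2.36 (standard error 0.34, adjusted p = 0.0405) in liver and 4.36 (standard error 0.21, adjusted p = 8.12e-06) in the tumor by edgeR's quasi-likelihood test. The tumor call held in each of 15 alternative settings, and the liver call in 11 of 15. In liver the adjusted p was 0.0645, 0.196 and 0.193 without vehicle library 1, 2 and 3 and 0.184 without TDB library 2, with log2 fold changes of 2.13 to 2.75. Without the third TDB library, which stood apart, it was 2.32 (adjusted p = 0.0174).

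Immune cell markers were read beside Hk3. In the tumor 7 of 10 monocyte and macrophage markers were called as higher, and their summed CPM was 356 to 466 with vehicle and 1320.0 to 1616 with TDB. Most of that rise was Cd14, at 195 and 1092 CPM on average, and without it the sums were 171 to 273 and 344 to 477. Of 7 neutrophil markers 5 were tested in the tumor and 3 were called as higher. The neutrophil sums were 5.24 to 16.6 and 42.1 to 78.0, and without S100a8 1.85 to 10.2 and 16.1 to 18.3. Of those tested, S100a9 and Mmp9 did not pass, with log2 fold changes of 1.23 and -0.10. Ly6g was at 0 in the vehicle libraries of both tissues. It held 3 counts in tumor TDB and 5 in liver TDB libraries and was not tested. The summed CPM of 10 T cell markers was 2.39 to 4.17 in tumor vehicle, with Cd3e at 0, and 14.3 to 23.8 in tumor TDB libraries, with 9 of 10 called as higher.

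In liver fewer markers passed and the lists were mixed. The T cell sums were 11.6 to 13.3 with vehicle and 25.8 to 32.1 with TDB, with 1 of 10 genes (Cd8a) called and 8 at an unadjusted p under 0.05. The monocyte and macrophage sums overlapped, at 272 to 334 and 319 to 359, with 0 of 10 genes called by edgeR, 2 by DESeq2 and 4 at an unadjusted p under 0.05, all higher. The neutrophil sums overlapped too, at 13.6 to 28.0 and 20.4 to 35.1. Of 6 neutrophil markers tested, 0 were called and 0 had an unadjusted p under 0.05 by edgeR. Of 6 Kupffer cell markers Marco was called as higher (log2 fold change 2.75, adjusted p = 0.0430), 3 were above 0 and 3 below. DESeq2 called 2 of the 6 as higher and 1 as lower. At an unadjusted p under 0.05 by edgeR, 2 were higher and 1 was lower, namely Vsig4 with -0.91. Of 4 B cell markers tested 3 were below 0, and 0 were called by edgeR or DESeq2 or had an unadjusted p under 0.05. Of 10 hepatocyte markers 6 were below 0 and 4 above, and 0 were called by edgeR, DESeq2 or limma-voom. Of the 4 at an unadjusted p under 0.05 by edgeR, Alb, Serpina1a and Ahsg were lower with TDB and Fgb higher. The hepatocyte sum was 172530.0 to 204725 CPM with vehicle and 127450.0 to 150365 CPM with TDB, and without Alb 58389 to 67917 and 43162 to 54908. The part of any of these cells in the rise of Hk3 was not tested.

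Hk2, the inducible hexokinase bound to mitochondria, rose modestly in the tumor. Its levels were 99.4, 109.6 and 117 CPM with vehicle and 132, 149.6 and 153 CPM with TDB, a log2 fold change of 0.42 (standard error 0.09, adjusted p = 0.00684). The groups did not overlap. In liver Hk2 was at 0.551, 0.448 and 0.497 CPM with vehicle and 0.937, 1.85 and 5.29 CPM with TDB, so that all TDB libraries were above all vehicle libraries but spread widely, with the highest value in the third. The liver log2 fold change of 2.42 did not pass with edgeR (standard error 0.66, adjusted p = 0.281) and passed with DESeq2, with the replicate block and in the fit of all 12 libraries. Hk1, the hexokinase of most tissues, was at 703 ± 42.3 and 635 ± 62.0 CPM in the tumor (mean ± SD, n = 3) and at 3.32 ± 1.20 and 5.20 ± 1.89 CPM in liver, and passed in neither.

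The make-up of the RNA of the 3 hexokinase members, Hk1, Hk2 and Hk3, was compared per kilobase of exon, as a description without a test. In liver Hk3 made up 73.5% ± 11.2 of their summed CPM per kb with vehicle and 87.7% ± 5.31 with TDB (SD, n = 3), and the sum was 1.88 ± 0.605 and 8.29 ± 1.36 CPM per kb. In the tumor Hk3 made up 1.01% ± 0.306 of the sum with vehicle and 17.8% ± 1.42 with TDB, and Hk1 81.1% ± 1.03 and 61.9% ± 3.37. The tumor sum was 101.6 ± 6.36 and 120.0 ± 5.35 CPM per kb. Hk3 was thus the main member of the 3 in liver in both groups, and Hk1 in the tumor.

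**Figure D2:**
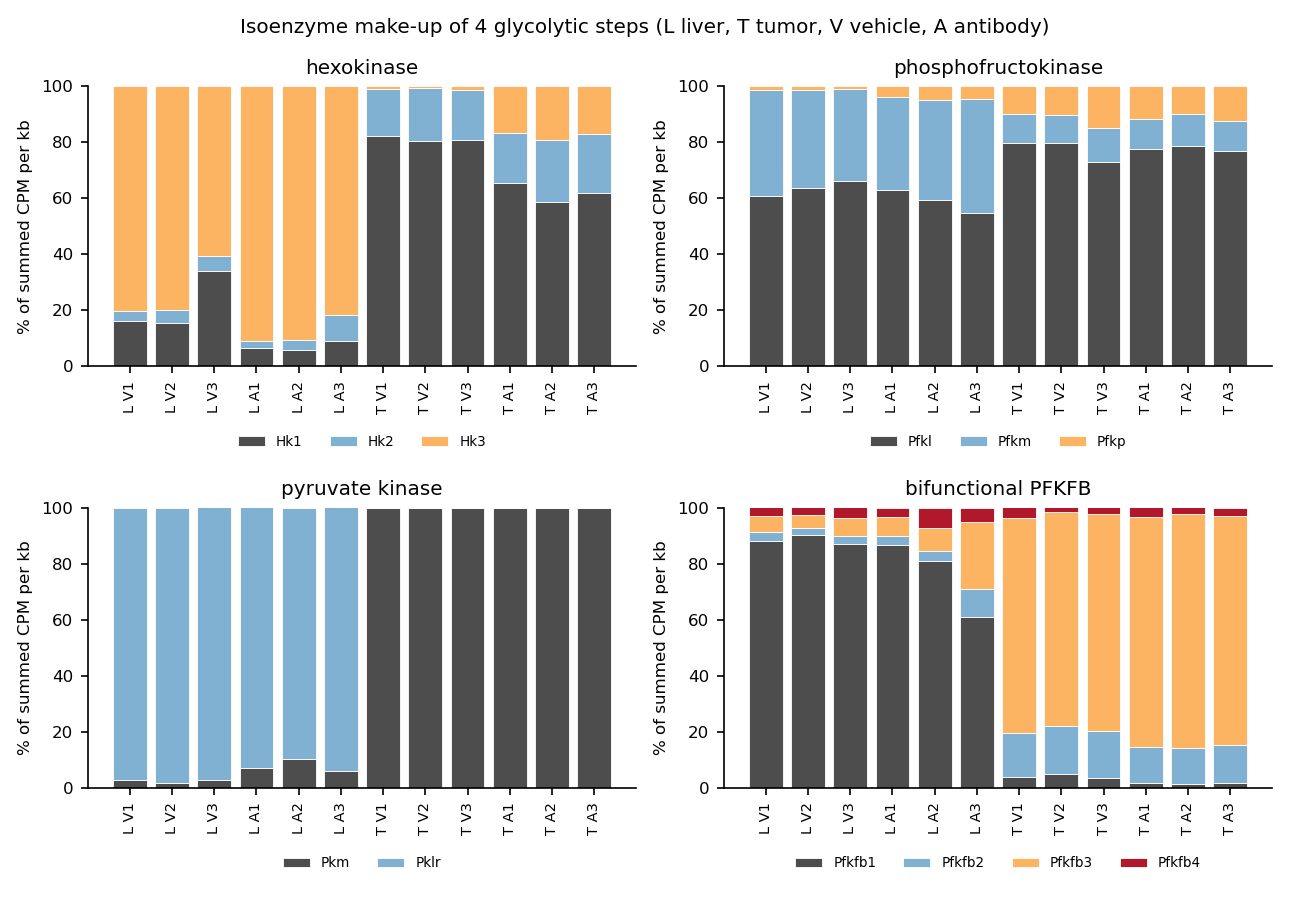
Share of each isoenzyme in the summed CPM per kb (y axis, percent) of 4 glycolytic steps in each of the 12 libraries (x axis: L liver, T tumor, V vehicle, A antibody, with the library number). Hk3 takes 81.5% to 91.0% of the RNA of Hk1, Hk2 and Hk3 in the liver antibody libraries and 16.9% to 19.4% in the tumor ones, and Pkm 6.05% to 10.1% of pyruvate kinase RNA in the liver antibody libraries.

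Pfkp, the platelet form of phosphofructokinase, the enzyme that commits sugar to glycolysis, and Pkm, the muscle-type pyruvate kinase of the last step, rose in liver. Pfkp was at 1.98, 1.34 and 1.59 CPM with vehicle and 4.85, 6.03 and 6.53 CPM with TDB, and Pkm at 4.90, 4.59 and 4.97 and 12.5, 16.6 and 13.1 CPM. All TDB libraries were above all vehicle libraries for both genes. The log2 fold changes were 1.82 (standard error 0.29, adjusted p = 0.0481) for Pfkp and 1.54 (standard error 0.24, adjusted p = 0.0468) for Pkm. Both calls lay close to the threshold and held in 5 of 15 alternative settings: the adjusted p rose to between 0.0515 and 0.0892 with median-of-ratios or upper quartile scaling, limma-voom or the FPKM values. Leaving out any single vehicle library, or TDB library 1 or 2, also ended both calls (adjusted p from 0.0530 to 0.328), whereas both held without the third TDB library.

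Both genes stayed minor forms in liver. Pfkp made up 1.24% ± 0.113 of phosphofructokinase RNA per kb with vehicle and 4.50% ± 0.588 with TDB, and Pkm 2.50% ± 0.546 and 7.71% ± 2.15 of pyruvate kinase RNA per kb (SD, n = 3). The remainder was mainly Pfkl and Pfkm for the former step and Pklr, the liver pyruvate kinase, for the latter. The exon union used as length is 13401 bases for Pfkp, 6675 for Pfkl and 3340 for Pfkm. Their protein-coding transcripts hold 4536, 3759 and 3308 distinct 50-base runs, so the share of Pfkp is lowered by the length used. Pklr was at 126 ± 26.5 and 112 ± 18.4 CPM, a log2 fold change of -0.17 (95% interval -0.70 to 0.36, adjusted p = 0.862). The liver marker values given beside Hk3 belong to the same libraries, and the part of any cell type in the rise of these genes was not tested. In the tumor Pfkp was at 317, 332 and 444 CPM with vehicle and 332, 268 and 346 CPM with TDB, which overlapped. Pkm was at 403, 401 and 434 and 518, 440.4 and 462 CPM there, without overlap, and neither gene passed (adjusted p = 0.340 and 0.113).

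The regulators of fructose 2,6-bisphosphate, the strongest activator of phosphofructokinase, gave 2 called members in the tumor. Pfkfb3, the inducible kinase-dominant form, was at 68.5, 71.2 and 82.7 CPM with vehicle and 134, 157 and 152 CPM with TDB. Its log2 fold change was 0.99 (standard error 0.09, adjusted p = 9.72e-05), about a doubling, and the groups did not overlap. Pfkfb4 was at 2.20, 0.903 and 1.50 CPM with vehicle and 3.49, 2.98 and 3.76 CPM with TDB, a much lower level, with a log2 fold change of 1.15 (standard error 0.30, adjusted p = 0.0211). The Pfkfb4 call was lost without TDB library 1 or 3 (adjusted p = 0.0617 and 0.0625).

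Pfkfb1, the liver form, did not pass in the tumor, where it was at 1.92, 2.39 and 2.07 and 1.41, 1.22 and 1.61 CPM, a log2 fold change of -0.60 (95% interval -1.12 to -0.07, adjusted p = 0.0844). In liver it was at 36.2 ± 6.57 CPM with vehicle and 30.9 ± 6.12 CPM with TDB and did not pass. Liver Pfkfb3 was at 3.86, 4.31 and 4.82 CPM with vehicle and 5.20, 6.86 and 17.5 CPM with TDB, where the third library alone lay far above the rest, and its log2 fold change was 1.19 (95% interval 0.10 to 2.27, adjusted p = 0.536). Summed over Pfkfb1 to Pfkfb4, the RNA of this step was 12.8 ± 1.18 and 23.7 ± 1.83 CPM per kb in tumor vehicle and TDB, and Pfkfb3 made up 76.9% ± 0.679 and 82.3% ± 0.808 of it (SD, n = 3).

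**Figure D3:**
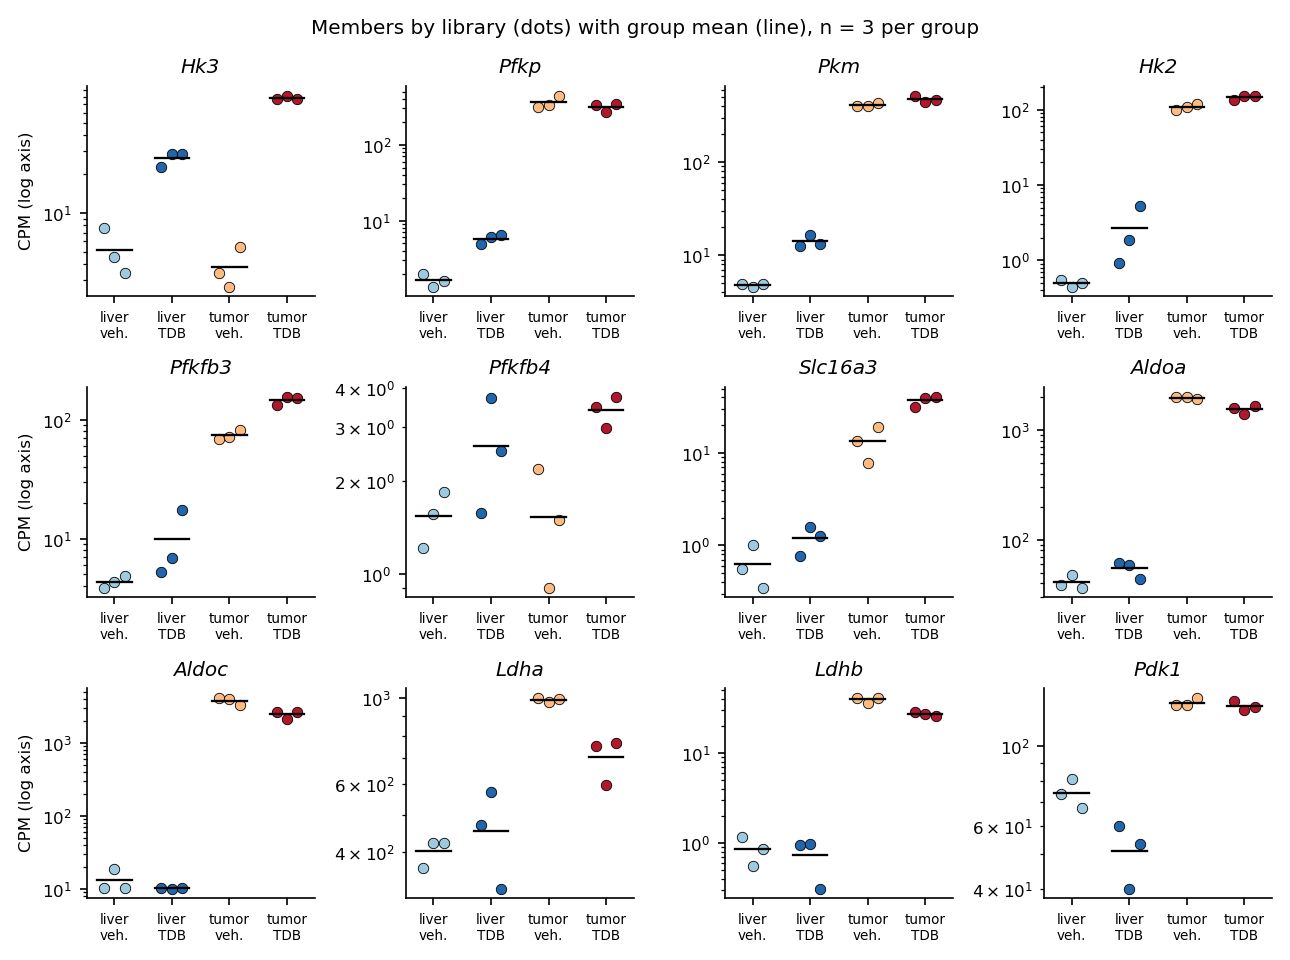
CPM of 12 members in each library (dots, log axis, a range of its own in each panel) with the group mean (line), for liver and tumor with vehicle or TDB, n = 3 per group. Hk3 is above all vehicle values in both tissues, Pfkfb3 in the tumor lies at 68.5 to 82.7 with vehicle and 134 to 157 with TDB, and Aldoc, Ldha and Ldhb lie lower with TDB in the tumor.

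Of the lactate transporters, Slc16a3 rose in the tumor and Slc16a1 passed in neither tissue. Slc16a3 encodes MCT4, which exports lactate from highly glycolytic cells. It was at 13.4, 7.90 and 19.2 CPM in tumor vehicle and 31.4, 39.6 and 40.9 CPM in tumor TDB libraries, with no overlap and a log2 fold change of 1.47 (standard error 0.31, adjusted p = 0.0157). The call was lost without the filter on low counts and without vehicle library 1, TDB library 2 or TDB library 3 (adjusted p = 0.0710, 0.0593, 0.0666 and 0.0542), while the log2 fold change stayed between 1.40 and 1.46 there. Slc16a1, which encodes MCT1, was at 37.9 ± 7.35 and 30.9 ± 3.23 CPM in the tumor, a log2 fold change of -0.30 (95% interval -0.62 to 0.02, adjusted p = 0.149). The myeloid marker sums given beside Hk3 also moved with Slc16a3, Pfkfb3 and Pfkfb4 in the tumor, and their part was not tested.

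Both lactate dehydrogenase subunits fell in the tumor. Ldha, the subunit that favours lactate formation, was at 1003, 975 and 997 CPM with vehicle and 751, 598 and 766 CPM with TDB, and its log2 fold change was -0.49 (standard error 0.11, adjusted p = 0.00824). Ldhb, the subunit of oxidative tissues, was at 41.4, 36.5 and 41.2 and 28.8, 26.9 and 25.9 CPM, with a log2 fold change of -0.54 (standard error 0.08, adjusted p = 0.00162). All TDB libraries were below all vehicle libraries for both subunits. Their sum was 325.0 ± 6.18 and 230.3 ± 28.2 CPM per kb, and the share of Ldha was 92.2% ± 0.406 and 92.4% ± 1.01 (SD, n = 3; the sum and the share were not tested). In liver Ldha was at 364, 423 and 423 CPM with vehicle and 470.0, 573 and 322 CPM with TDB, which overlapped, and its log2 fold change was 0.17 (95% interval -0.40 to 0.75, adjusted p = 0.871).

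The aldolases of the tumor, Aldoc and Aldoa, fell as well. Aldoc encodes aldolase C, best known from brain. Its CPM per kb of exon was the highest of the glycolytic members in the tumor, with Gapdh left aside as unreadable here. Aldoc was at 4189.8, 3961 and 3261 CPM with vehicle and 2674, 2127 and 2688 CPM with TDB. Aldoa, the muscle and general form, was at 2018, 1985 and 1919 and 1582, 1393 and 1640.0 CPM. The groups did not overlap for either gene. The log2 fold changes were -0.61 (standard error 0.14, adjusted p = 0.00996) for Aldoc and -0.36 (standard error 0.10, adjusted p = 0.0209) for Aldoa. The Aldoa call was lost without vehicle library 1, TDB library 1 or TDB library 2 (adjusted p = 0.0583, 0.0564 and 0.0966). The second Aldoa identifier (ENSMUSG00000114515) held 126 counts over the tumor vehicle and 91 over the tumor TDB libraries and did not pass.

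Aldoa and Aldoc did not pass in liver, with log2 fold changes of 0.42 and -0.36. Proliferation markers moved with the falling tumor members: the summed CPM of 8 cell cycle genes was 812 to 959 in tumor vehicle and 367 to 588 in tumor TDB libraries, with 6 of 8 called as lower. Of the 10 epithelial tumor markers, 9 were tested and 2 fell, among them Erbb2, the mouse gene for HER2, while Epcam was at 1092 to 1326 CPM with vehicle and 1088 to 1297 CPM with TDB. The processing notes name the mouse genome and do not say how reads of the HER2 transgene were counted. The fall of Erbb2 is therefore no reading of the antibody's target. The part of these marker shifts in the fall of aldolase and lactate dehydrogenase RNA was not tested. In a fit of all 12 libraries, which shares the spread of liver with the tumor, the tumor calls of Hk2, Aldoa, Aldoc, Ldha, Ldhb, Pfkfb3 and Pfkfb4 were lost (adjusted p from 0.0909 to 0.734), with the same directions.

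The other glycolytic enzymes did not pass in the tumor. These were Hk1, Gpi1, Pfkl, Pfkm, Pfkp, Tpi1, Pgk1, Pgam1, Eno1, Eno3 and Pkm, 11 of the 17 tested, with log2 fold changes from -0.23 for Pgam1 to 0.39 for Eno3. Of all 17 tested enzymes 16 had a 95% interval within a factor of 2 in either direction in the tumor, the exception being Hk3. Tpi1, the triose phosphate isomerase, was at 691, 623 and 761 CPM with vehicle and 633, 566 and 641 CPM with TDB. Pfkl, the most abundant phosphofructokinase of both tissues, was at 1204 ± 104 and 1067 ± 36.2 CPM in the tumor and 42.0 ± 7.77 and 37.8 ± 2.24 CPM in liver. In liver 14 of 17 enzymes did not pass, and only 8 of the 17 had an interval within a factor of 2.

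Gapdh, widely used as a reference gene, could not be read from these counts. It held 23 counts in all 12 libraries together and was not tested. Of the 50-base runs in its annotated transcripts, 58.4% also occur in transcripts of other genes, among them 213 pseudogenes. The share was 68.0% for Pgk1, 59.1% for Bnip3, 49.5% for Eno1, 41.5% for Pgam1, 24.5% for Gpi1, 23.7% for Pkm, 21.0% for Ldhb, 15.4% for Pfkp, 10.4% for Ldha and 8.46% for Aldoa. It was 0% for Hk2, Hk3, Aldoc, Pfkfb4 and Slc16a3 among others. The sources used here do not give how reads that match several genes were counted, so the levels of the genes with shared sequence are uncertain, and how far this touched their fold changes was not tested.

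**Figure D4:**
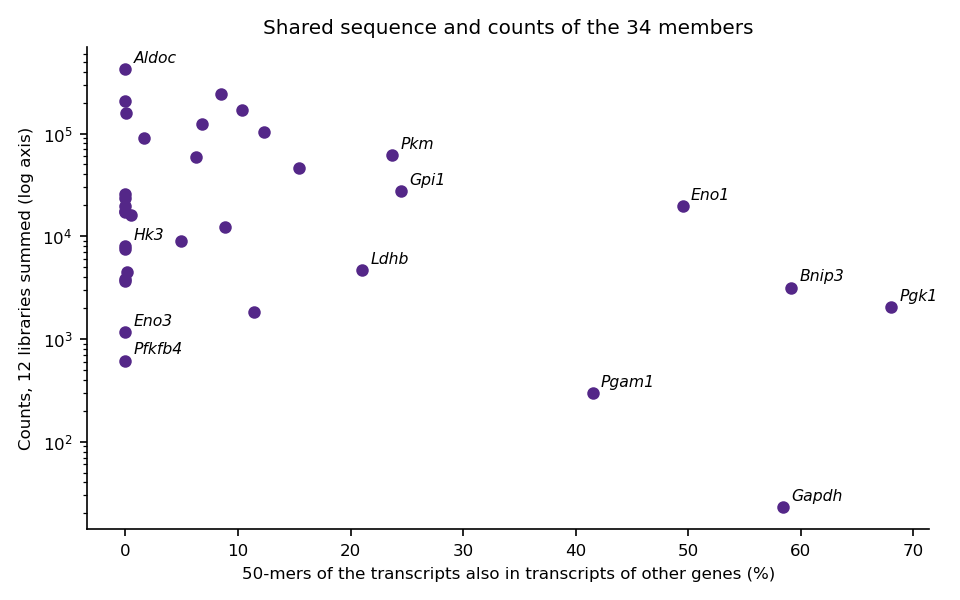
Each dot is a member: the x axis gives the percent of 50-base runs of its annotated transcripts that also occur in transcripts of other genes, and the y axis its counts summed over the 12 libraries (log axis). Gapdh lies apart at 58.4% and 23 counts, while Hk3 and Aldoc share no such run and hold 7963 and 425639 counts.

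No member of the oxygen sensing group passed in either tissue with edgeR, DESeq2 or limma-voom, and none had an unadjusted p under 0.05. Hif1a encodes the oxygen-labile subunit of HIF-1, and Egln1 and Egln3 encode the prolyl hydroxylases PHD2 and PHD3, of which Egln3 is itself a HIF target. In the tumor Hif1a was at 366, 346 and 480.0 CPM with vehicle and 391, 408 and 448 CPM with TDB, and Egln3 at 1542, 1408 and 1793 and 1427, 1340.2 and 1480.5 CPM. The vehicle and TDB libraries overlapped for all 3 genes. The log2 fold changes were 0.07 (95% interval -0.22 to 0.35, adjusted p = 0.739) for Hif1a, -0.14 (95% interval -0.36 to 0.08, adjusted p = 0.308) for Egln1 and -0.16 (95% interval -0.41 to 0.09, adjusted p = 0.312) for Egln3. HIF-1 alpha is governed mainly at the protein level, which RNA does not show.

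None of the 8 hypoxia-inducible members passed in the tumor with edgeR, DESeq2 or limma-voom, and none had an unadjusted p under 0.05 with any of these. Car9, the carbonic anhydrase used as a marker of hypoxic tumor, was at 58.5, 63.4 and 89.4 CPM with vehicle and 64.8, 54.3 and 65.9 CPM with TDB, a log2 fold change of -0.19 (95% interval -0.58 to 0.20, adjusted p = 0.429). Ankrd37 was at 14.7, 12.1 and 14.0 and 10.6, 11.6 and 13.5 CPM, with -0.19 (95% interval -0.50 to 0.11, adjusted p = 0.314), these being the genes of the group furthest from 0. Pdk1, the kinase that shuts pyruvate dehydrogenase, was at 130.0, 130.5 and 137 and 134, 127 and 128 CPM. The log2 fold changes of the 8 genes ran from -0.19 to 0.13, and all 8 intervals, between -0.66 and 0.55, lay within a factor of 2 in either direction. With 3 mice per group, changes within these intervals could not be told from 0. The others were Ndrg1, Bnip3, a mitophagy gene, the collagen prolyl hydroxylases P4ha1 and P4ha2, and Adm, which encodes the vasodilator adrenomedullin.

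Within each tumor group the third library was high in most of these genes. Tumor vehicle library 3 was the highest of its group in 7 of the 8 hypoxia-inducible and 3 of the 3 oxygen sensing members, and tumor TDB library 3 was the highest of its group in 7 of 8 and 3 of 3. Ndrg1, for example, was at 692, 541 and 980.3 CPM with vehicle and 683, 568 and 879 CPM with TDB. In the same libraries fibroblast markers were high: their summed CPM was 1021, 676 and 2099 with vehicle and 665, 804 and 1541 with TDB, the third library being the highest in 8 of 8 and 7 of 8 markers. Whether the 2 patterns are linked was not tested. None of the 11 genes passed in any of 15 alternative settings, the fits without vehicle library 3 or TDB library 3 included. The labels do not say that a number marks a shared batch or day.

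**Figure D5:**
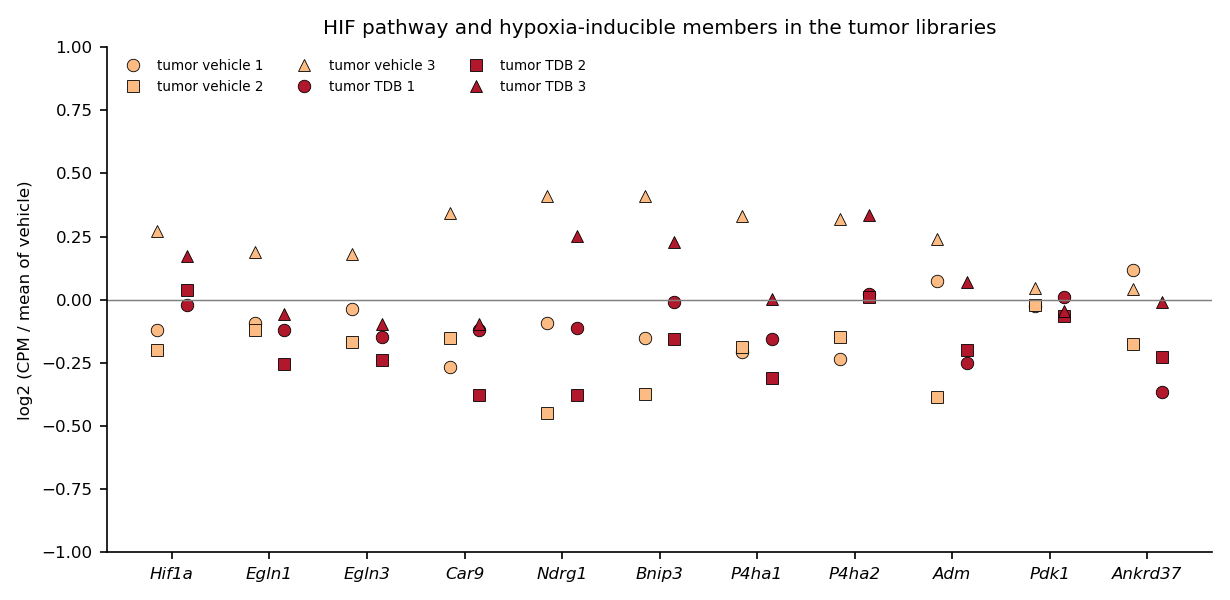
CPM of the 3 oxygen sensing and 8 hypoxia-inducible members in the 6 tumor libraries, as log2 of the ratio to the mean of the vehicle group (y axis), with the marker shape giving the library number. Vehicle and TDB libraries overlap for every gene, and the triangles of library 3 lie highest within their group for most genes.

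In liver the oxygen sensing genes did not pass and 0 of the 7 tested hypoxia-inducible members passed with edgeR, DESeq2 or limma-voom, with 2 at an unadjusted p under 0.05 by edgeR. Ankrd37 was at 0.826, 2.35 and 0.547 CPM with vehicle and 0.256, 0.264 and 0.309 CPM with TDB, which did not overlap, and its log2 fold change was -2.14 (standard error 0.62, adjusted p = 0.321). Pdk1 was at 73.7, 81.1 and 67.3 CPM with vehicle and 60.0, 40.1 and 53.4 CPM with TDB, also without overlap, a log2 fold change of -0.53 (standard error 0.22, adjusted p = 0.576). Ankrd37 rested on 68 counts over the vehicle and 20 over the TDB libraries. Car9 held 7 and 30 counts over the same groups, at 0.110, 0.168 and 0.0994 CPM with vehicle and 0.298, 0.377 and 0.573 CPM with TDB, all TDB libraries being above all vehicle libraries. It fell under edgeR's filter in liver. Tested without that filter it had a log2 fold change of 1.67 (unadjusted p = 0.0369, adjusted p = 0.727), and DESeq2 gave 1.71 (unadjusted p = 0.0644, adjusted p = 0.662), so it did not pass. In the test of the difference between tissues its value was -1.94 (standard error 0.48, adjusted p = 0.0615), which did not pass either. Hif1a was at 26.4, 21.7 and 25.9 CPM with vehicle and 19.7, 25.8 and 53.9 CPM with TDB, the third TDB library lying above the others.

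A test of the difference between tissues asked whether the antibody effect in the tumor differed from that in liver. It called 1 of 33 members as more positive in the tumor and 2 as more negative, against 2.49% of all genes tested (1.83% and 0.658%). Hk3 had a log2 difference, tumor effect minus liver effect, of 1.96 (standard error 0.42, adjusted p = 0.0290). Pfkp had -2.07 (standard error 0.29, adjusted p = 0.00274) and Pkm -1.39 (standard error 0.22, adjusted p = 0.00493), both having risen in liver without a call in the tumor. The Pfkp and Pkm calls held in 20 of 21 alternative settings. All of these fitted liver and tumor together and so shared the spread of both tissues. The standard error of Pkm was thus smaller here than in liver alone (0.24), and that of Pfkp was no larger (0.29 in liver). Both liver calls held in only 5 of 15 settings, so this stability says little about the liver part. The Hk3 call held in 12 of 21 and was lost without liver vehicle 1, liver TDB 2, tumor vehicle 1 or 2, or any tumor TDB library (adjusted p from 0.0604 to 0.0928), with the replicate block (0.0904) and with library size only (0.0547). The test treated the 12 libraries as unpaired, as no label ties them to mice.

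Between the tissues most members differed in the vehicle mice, in a test that treated the liver and tumor libraries as unpaired. Of 33 tested, 23 were higher in tumor, 7 were higher in liver and 3 (Tpi1, Pgam1 and Ldha) did not pass, against 78.5% of all genes called (40.8% and 37.8%). The largest differences towards the tumor were those of Car9 at 7.88 (standard error 0.33, adjusted p = 7.01e-08) and Aldoc at 6.98 (standard error 0.35, adjusted p = 2.12e-07) (log2, tumor minus liver), followed by Pfkp, Hk2, Hk1 and Egln3. Pfkfb1 at -5.30 (standard error 0.21, adjusted p = 5.53e-08) and Slc16a1 at -2.84 (standard error 0.19, adjusted p = 1.30e-06) were the furthest towards liver. The direction of small differences depended on the scaling. With library size only, a setting chosen after seeing the scaling factors, the median over all genes moved from 0.08 to 1.42, 27 members were higher in tumor and 2 in liver, and Pfkfb4 and Pdk1 changed sign, to 0.11 and 0.96.

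Per kb of exon, the order of the members also differed between the tissues. In tumor vehicle the most abundant were Aldoc at 1166 ± 148, Aldoa at 678 ± 17.4, Egln3 at 594 ± 73.4, Ldha at 299.7 ± 4.42 and Tpi1 at 251 ± 25.0 CPM per kb. In liver vehicle they were Ldha at 122 ± 10.2, Tpi1 at 101 ± 10.1, Slc16a1 at 26.4 ± 3.81 and Aldoa at 14.0 ± 1.99 CPM per kb (mean ± SD, n = 3). In the tumor each pair of neighbours in this order lay further apart than their summed SDs except Aldoa and Egln3. In liver Ldha and Tpi1 lay about as far apart as their summed SDs, and the other neighbours lay further apart. These SDs give the spread between libraries and do not cover the choice of exon length. The exon union is 2753 bases for Tpi1 and 3310 for Ldha, while their protein-coding transcripts hold 1714 and 2845 distinct 50-base runs. The order of Ldha and Tpi1 can therefore change with the length used, which was not tested. Gapdh could not be read from these counts. Members with much shared sequence, such as Pgk1, Eno1 and Pgam1, have uncertain levels, so their places in this order are uncertain as well.

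Other genes of the same pathways, 104 in 7 lists, were read in the same way. Their counts stand against the 28.8% of all genes called in the tumor, and a share near that is not a result about a list. Of 29 other hypoxia-inducible genes tested in the tumor, 2 rose and 5 fell, near that share, with a median log2 fold change of -0.05. Pgf, the placental growth factor of the VEGF family, was at 261 ± 9.89 CPM with vehicle and 87.6 ± 22.0 CPM with TDB and had a log2 fold change of -1.57 (standard error 0.18, adjusted p = 8.06e-04). Ppp1r3c, a glycogen-targeting subunit of protein phosphatase 1, was at 37.9 ± 3.80 and 14.0 ± 3.16 CPM, with -1.44 (standard error 0.16, adjusted p = 3.53e-04). The carbonic anhydrase Car12 was at 705 ± 87.8 and 394 ± 75.2 CPM, with -0.84 (standard error 0.15, adjusted p = 0.00458). Wsb1 and Kdm3a rose, by 0.49 and 0.24, and the Kdm3a call (adjusted p = 0.0498) held in 6 of 15 alternative settings, being lost without vehicle library 1 or 2 or any TDB library (adjusted p up to 0.828 over the alternatives). Vegfa, the vascular endothelial growth factor, was at 232, 241 and 357 CPM with vehicle and 246, 234 and 323 CPM with TDB and did not pass, with -0.05 (95% interval -0.53 to 0.43, adjusted p = 0.889). Slc2a1, the glucose transporter GLUT1, was at 298 ± 70.2 and 324 ± 32.0 CPM and did not pass either, with 0.12 (95% interval -0.27 to 0.51, adjusted p = 0.637).

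Among 15 regulators of the HIF pathway 4 rose and 1 fell in the tumor, again near the 28.8% over all genes. Arnt2, a partner subunit, rose by 0.83 (standard error 0.16, adjusted p = 0.00617), Cul2, the cullin of the VHL complex, by 0.76 (standard error 0.08, adjusted p = 2.34e-04) and the coactivator Ep300 by 0.31 (standard error 0.10, adjusted p = 0.0421) on the log2 scale. The Ep300 call held in 7 of 15 alternative settings and was lost without vehicle library 1 or any TDB library (adjusted p up to 0.918 over the alternatives). Vhl rose by 0.29 (standard error 0.07, adjusted p = 0.0165), a call that held in 11 of 15 and was lost without TDB library 2 (adjusted p up to 0.721 over the alternatives), and the ubiquitin ligase Siah2 had a log2 fold change of -0.60 (standard error 0.12, adjusted p = 0.00658). Epas1, which encodes HIF-2 alpha, and Arnt did not pass, at -0.34 and 0.09, although Epas1 passed without vehicle library 1 (adjusted p = 0.0173).

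The pentose phosphate pathway, which branches from glucose 6-phosphate and yields NADPH, had 3 of 8 genes higher and 2 lower in the tumor, where 28.8% of all genes were called (15.8% higher and 13.1% lower). G6pdx, its first enzyme, was at 71.0, 70.9 and 72.9 CPM with vehicle and 109, 96.6 and 99.8 CPM with TDB, a log2 fold change of 0.51 (standard error 0.07, adjusted p = 8.57e-04). Rpia rose by 0.50 and Pgd by 0.27, while Taldo1 had -0.42 and Pgls -0.40. The Pgd call was lost without vehicle library 1 or 3 or TDB library 1 or 2, that of Taldo1 without TDB library 2 and that of Pgls without TDB library 3 (adjusted p up to 0.529, 0.199 and 0.494 over the alternatives). Of 6 gluconeogenesis genes tested in the tumor 3 fell (Pck2, Slc37a4 and Pcx, from -0.53 to -0.51), and of 15 tricarboxylic acid cycle genes 2 fell (Idh3a and Fh1, at -0.30 and -0.23). The Idh3a call was lost without vehicle library 1 or TDB library 2, and that of Fh1 with DESeq2, with the replicate block and without vehicle library 1 or 2 or any TDB library (adjusted p up to 0.122 and 0.419 over the alternatives). Of 12 genes of pyruvate entry into mitochondria only Pdk2 passed with edgeR, at -0.21, and its call held in 7 of 15 alternative settings, being lost with DESeq2, without the filter and without vehicle library 1 or 2 or any TDB library (adjusted p up to 0.433 over the alternatives). Pdk4, a kinase induced by fasting, was at 0.183, 0.0903 and 0.706 CPM with vehicle and 0.377, 1.29 and 2.59 CPM with TDB and did not pass, with 2.08 (95% interval 0.06 to 4.11, adjusted p = 0.115). It passed in 4 of 15 alternative settings, namely DESeq2, the replicate block and the fits without vehicle library 3 or TDB library 1 (lowest adjusted p 0.0162). Of 8 other glycolysis isoenzymes tested in the tumor Pfkfb2 rose by 0.58 (standard error 0.12, adjusted p = 0.00618) and Ldhd, the mitochondrial D-lactate dehydrogenase, had -0.71 (standard error 0.19, adjusted p = 0.0342). The Ldhd call was lost without vehicle library 1 or 3 or TDB library 1 or 2 (adjusted p up to 0.124 over the alternatives).

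In liver no gene of the 7 lists passed with edgeR or limma-voom, and DESeq2 called 1, a gluconeogenesis gene, as lower. At an unadjusted p under 0.05 by edgeR, 1 of 8 pentose phosphate genes was higher, 1 of 7 gluconeogenesis genes and 1 of 25 other hypoxia-inducible genes were lower, and the other 4 lists had 0. G6pc, the glucose 6-phosphatase that releases glucose from liver and a gene singled out after its values were seen, was at 313, 200.4 and 212 CPM with vehicle and 77.3, 72.9 and 149 CPM with TDB, with no overlap and a log2 fold change of -1.28 (standard error 0.34, adjusted p = 0.255).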

How the data were processed

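Per the labels' protocols, total RNA of the 12 samples was purified on columns and read by Illumina HiSeq. The authors deposited whole-number counts per Ensembl gene and FPKM values. The submitters' processing notes name GSNAP, limma and GRCm38; the sources used here do not give the counting rule, strand or annotation. The deposited FPKM values equal the counts divided by a median-of-ratios library factor and, for 84% of 7150 genes checked, by the genomic span within 1%, so FPKM was used only in alternatives. Counts were fitted with edgeR 4.0.16 (R 4.3.3; TMM, filterByExpr with a minimum count of 10 and total of 15, robust quasi-likelihood test), for each tissue's 6 libraries alone, for all 12 in the difference between tissues and for the 6 vehicle libraries between tissues. P-values were Benjamini-Hochberg adjusted over all genes tested, and called under 0.05 whatever the fold. In the fits of a single tissue they measure the spread between libraries of different mice, technical differences included. The fits that span both tissues treated liver and tumor libraries as unpaired, although by the design text they came from the same mice. Intervals are 95% intervals of the quasi-likelihood fit. DESeq2 1.42.0 and limma 3.58.1 were alternatives, and the tests were tested on simulated data with known changes. CPM per kb divides by the union of exons of GENCODE M21. The members and all gene lists were chosen with earlier results of these data known. Members called in liver or tumor are given in every library; of the other lists, up to 3 called genes per direction with the largest change are named, and Vegfa, Slc2a1, Epas1, Arnt, Vhl, Pklr and Pdk4 always; 2 further genes of that rule are not reported here. Promoter sequences are from RefSeq (GRCm38.p6); Ndrg1 had no entry.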

Additional observations from a re-analysis of the deposited data

Results flagged for a closer look

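The antibody effect differed between tumor and liver for 4 of the genes read, by the interaction test in edgeR with Benjamini-Hochberg adjustment. For Hk3 the log2 difference, tumor effect minus liver effect, was 1.96, as its rise was larger in the tumor. For Pfkp it was -2.07 and for Pkm -1.39, each higher with TDB in 3 of 3 liver libraries than in any vehicle library. Ppp1r3c, from the list of other hypoxia-inducible genes, had -1.21 (adjusted p = 0.0256), with 150.3, 117 and 126 CPM in liver vehicle, 114, 104 and 109 in liver TDB, 33.5, 40.5 and 39.7 in tumor vehicle and 13.7, 11.0 and 17.3 in tumor TDB. The Ppp1r3c call held in 13 of 21 alternative settings and was lost with the replicate block and without liver vehicle 2 or 3, liver TDB 2, tumor vehicle 2 or 3 or tumor TDB 1 or 2 (adjusted p up to 0.0911 over the alternatives).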

How the results depend on the processing

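With 3 mice per group, small effects in liver were hard to detect. Over all genes, DESeq2 called 271 higher and 49 lower in liver against 70 and 3 with edgeR, and 560 and 296 against 303 and 109 in the difference between tissues. Higher and lower calls over all genes in liver were 133 and 12 without the filter, 67 and 5 with upper quartile scaling, 25 and 1 with log2(FPKM + 1), 295 and 60 with the replicate block and 282 and 41 in the fit of all 12 libraries. In the difference between tissues they were 557 and 509 with log2(FPKM + 1), 484 and 293 with log2(FPKM + 0.1) and 217 and 43 with the block. In the tumor log2(FPKM + 1) gave 1936 and 2358 and log2(FPKM + 0.1) 1938 and 2399, and between tissues library size only gave 10495 and 2772 against 6371 and 5904. The count of members higher in liver was 3 and came to 1 with median-of-ratios factors, upper quartile scaling, limma-voom and both FPKM settings (log2 fold changes of 0.11 for Pfkp and 0.51 for Pkm on the log2(FPKM + 1) scale, which understates low genes), and to between 0 and 3 without a single library. In the fit of all 12 libraries 1 member was lower in liver (Ankrd37), and in the tumor 2 were higher and 0 lower instead of 5 and 4, with 1068 and 627 genes called in all against 2437 and 2019. Without a single tumor library, 3 (without TDB 3) to 5 members were higher and 3 to 4 lower. In the difference between tissues, the 1 member more positive in the tumor became 2 with DESeq2 and with log2(FPKM + 1), 0 with library size only and between 0 and 2 without a single library; the 2 more negative became 1 with log2(FPKM + 1), 4 with library size only and 2 to 3 without a single library. Library size only moved the median over all genes in that test from -0.12 to -0.31 and its calls to 267 more positive and 190 more negative. Between tissues, the 7 members higher in liver became 2 with library size only, where Pfkfb4 changed to 0.11 and Pdk1 to 0.96, while 23 became 27.

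Library numbers are shared between the groups, but same-numbered libraries did not deviate together in every pair, and the numbers were not taken to pair the samples. Between same-numbered vehicle and TDB libraries, the correlations of deviations from the group means were -0.09, 0.46 and 0.61 in liver and 0.06, 0.02 and 0.26 in the tumor. Between same-numbered liver and tumor libraries they were -0.02, -0.04 and 0.08 with vehicle and 0.02, 0.01 and 0.10 with TDB. With a replicate block, 4 members were higher and 0 lower in liver, 5 higher and 4 lower in the tumor, 0 more positive and 2 more negative in the difference between tissues, and 23 and 6 between tissues.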
